A study of Mus musculus with 46 samples.

Results

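The comparison described here is that of CD8 with CD4 T cells from the spleens of LMO2-transgenic mice, taken over all genes. Its members are the 3 RNA libraries whose labels give transgenic splenic CD8 cells and the 3 whose labels give transgenic splenic CD4 cells, 6 of the 40 RNA libraries of the series. Both populations were sorted from C57BL/6 mice that carry the hCD2-LMO2 knock-in allele, named for the human CD2 gene, whose control elements are used to drive genes in T cells. Every splenic library, the CD4 libraries included, therefore carries LMO2, and splenic cells of wild-type mice were not analysed here. The mice were kept free of specific pathogens. No age or sex is given, and nothing in the labels says that libraries of a group came from separate mice, so that p-values measure only the spread between these libraries. Each library held between 17935725 and 23502860 counted reads. Of 19521 genes in the deposited table, 12429 passed the filter on low counts and were tested.

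CD8 and CD4 T cells part ways in the thymus. CD8 T cells recognise peptides on MHC class I and are known for killing through perforin and granzymes and for a memory-like pool that lives on interleukin 15. CD4 T cells recognise peptides on MHC class II and include helper cells, follicular helper cells that assist B cells through CD40 ligand, and regulatory T cells held by the transcription factor Foxp3. The transcription factors Runx3 on the CD8 side and ThPOK, the product of Zbtb7b, on the CD4 side keep the lineages apart. LMO2 is a bridging protein that joins basic helix-loop-helix and GATA factors in blood stem cells, and it is an oncogene of T-cell leukaemia.

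Levels are given as CPM, reads scaled to a common library size, and in the order replicate 1, 2 and 3. Lmo2 was at 81.6, 47.0 and 37.3 CPM in the CD8 libraries, against 49.0, 37.3 and 80.6 CPM in the CD4 libraries, so the groups overlapped. The log2 difference was -0.01, with a Benjamini-Hochberg adjusted p of 0.994 by the quasi-likelihood test of edgeR. Cd8a was at 389, 1379 and 1358 CPM in CD8 cells, against 4.33, 5.98 and 45.8 CPM in CD4 cells. Cd4 was at 49.1, 3.13 and 3.80 CPM in CD8 cells, against 1468, 1480 and 894 CPM in CD4 cells. The coreceptors thus separated the groups in all 6 libraries, in the direction of the labels, while CD8 replicate 1 and CD4 replicate 3 held more of the other group's coreceptor than the libraries of their own group.

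CD8 replicate 1 and CD4 replicate 3 also stood apart in other ways. The names of the other 4 count columns, CD8 replicates 2 and 3 and CD4 replicates 1 and 2, end in N, a suffix that no label explains, and the names of these 2 do not. The chi-square statistic per gene between libraries of a group was 9.56 for CD8 replicates 2 and 3 and 14.3 for CD4 replicates 1 and 2, against 196 to 363 for the pairs that include CD8 replicate 1 or CD4 replicate 3. Cd3e, a chain of the T-cell receptor complex, was at 109, 647 and 650 CPM in CD8 cells, against 582, 550 and 317 CPM in CD4 cells. It was lowest in CD8 replicate 1, whose own group was otherwise near 650.

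B-cell and myeloid transcripts were highest in CD8 replicate 1 and CD4 replicate 3, and erythroid transcripts in CD4 replicate 3. The summed level of the 16 B-cell markers was 19230, 6771 and 5376 CPM in CD8 cells, against 11730, 9269 and 15090 CPM in CD4 cells. Myeloid markers summed to 4712, 222.1 and 288.7 CPM in CD8 cells, against 1194, 866.9 and 5787 CPM in CD4 cells. Erythroid and platelet markers summed to 194.5, 671.6 and 422.4 CPM in CD8 cells, against 2190, 1019 and 55820 CPM in CD4 cells. Lyz2, the lysozyme of macrophages, was at 1238, 35.7 and 47.8 CPM in CD8 cells, against 191, 132 and 1456 CPM in CD4 cells. Genes of immature thymocytes were low in every library: Rag1 was at 6.53, 0.464 and 0.570 CPM in CD8 cells, against 1.05, 1.15 and 3.19 CPM in CD4 cells. In sorted bulk samples fewer cells of a type and less RNA per cell cannot be told apart. The results below are therefore given over all 6 libraries and again over the 4 libraries with suffix N, a comparison added after CD8 replicate 1 and CD4 replicate 3 had been seen to stand apart. Both comparisons share those 4 libraries.

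**Figure D1:**
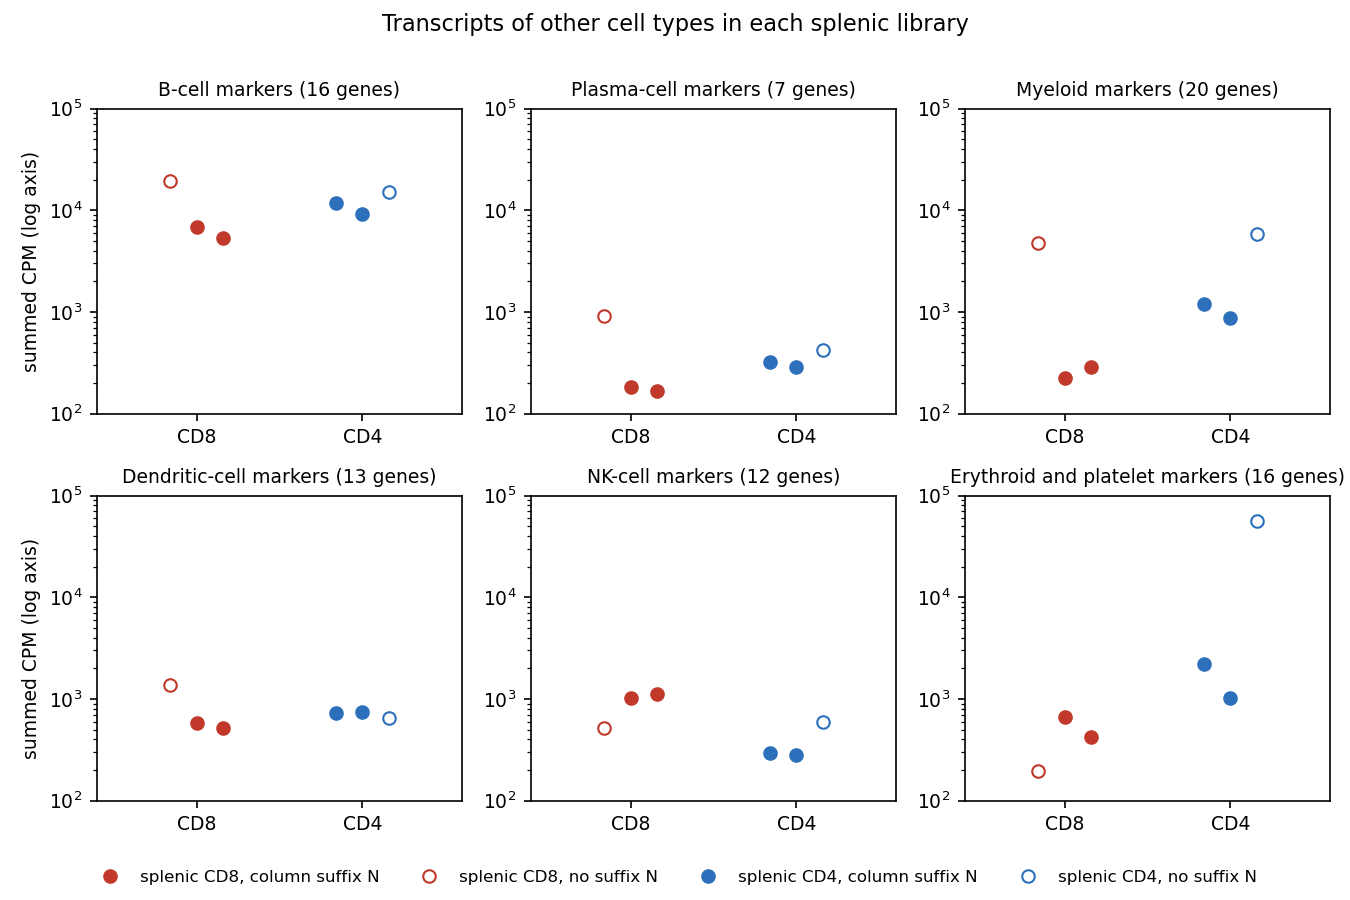
Summed CPM (log axis) of marker genes of other cell types in each splenic library, CD8 libraries left of CD4 libraries, 1 point per library, open for the 2 libraries without suffix N. Myeloid markers stood at 4712 CPM in CD8 replicate 1 and at 5787 CPM in CD4 replicate 3, and erythroid and platelet markers at 55820 CPM in CD4 replicate 3.

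Over 6 libraries, 61 genes passed an adjusted p of 0.05, of which 13 were higher in CD8 cells, 0.105% of the genes tested, and 48 were lower, 0.386%. All 61 differed by at least 2-fold. Without regard to the test, every CD8 library lay above every CD4 library in 1786 genes, 14.4% of those tested, and below in 1728 genes, 13.9%. The median log2 difference of all tested genes was 0.00997 and the median standard error 0.282. The number of calls depended on single libraries: it was 1289 without CD8 replicate 1, 1 without CD8 replicate 2 and 0 without CD8 replicate 3. It was 0 without CD4 replicate 1, 5 without CD4 replicate 2 and 25 without CD4 replicate 3. All 61 genes kept their direction in each of these fits. It could hardly change, because in each of the 61 all CD8 libraries lay on the same side of all CD4 libraries.

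Over the 4 libraries with suffix N, 4494 of 12355 genes passed, 2042 higher in CD8 cells, 16.5% of the genes tested, and 2452 lower, 19.8%. Of these, 433 were at least 2-fold higher and 1420 at least 2-fold lower. The median standard error was 0.122. All 61 genes of the 6-library comparison were among them, in the same direction, which their non-overlapping groups all but fixed in advance. The shares of 16.5% and 19.8% are the background for the counts of list members given below over 4 libraries. Of the calls, 21.3% were higher in CD8 cells over 6 libraries and 45.4% over 4 libraries. With 2 libraries per group, the p-values of the 4-library comparison rest on small spreads. These are the spreads between CD8 replicates 2 and 3 and between CD4 replicates 1 and 2. Transcripts of other cell types also differed between these CD8 and CD4 libraries. Myeloid markers summed to 222.1 and 288.7 CPM in CD8 cells, against 1194 and 866.9 CPM in CD4 cells. B-cell markers summed to 6771 and 5376 CPM, against 11730 and 9269 CPM. NK-cell markers went the other way, at 1014 and 1129 CPM, against 292 and 278 CPM. The part of such cells in the calls over 4 libraries was not tested. On simulated counts, described below, false calls were a larger share of the 4-library comparison's calls than the threshold on adjusted p allows. That also held, to a lesser degree, for the 6-library comparison.

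**Figure D2:**
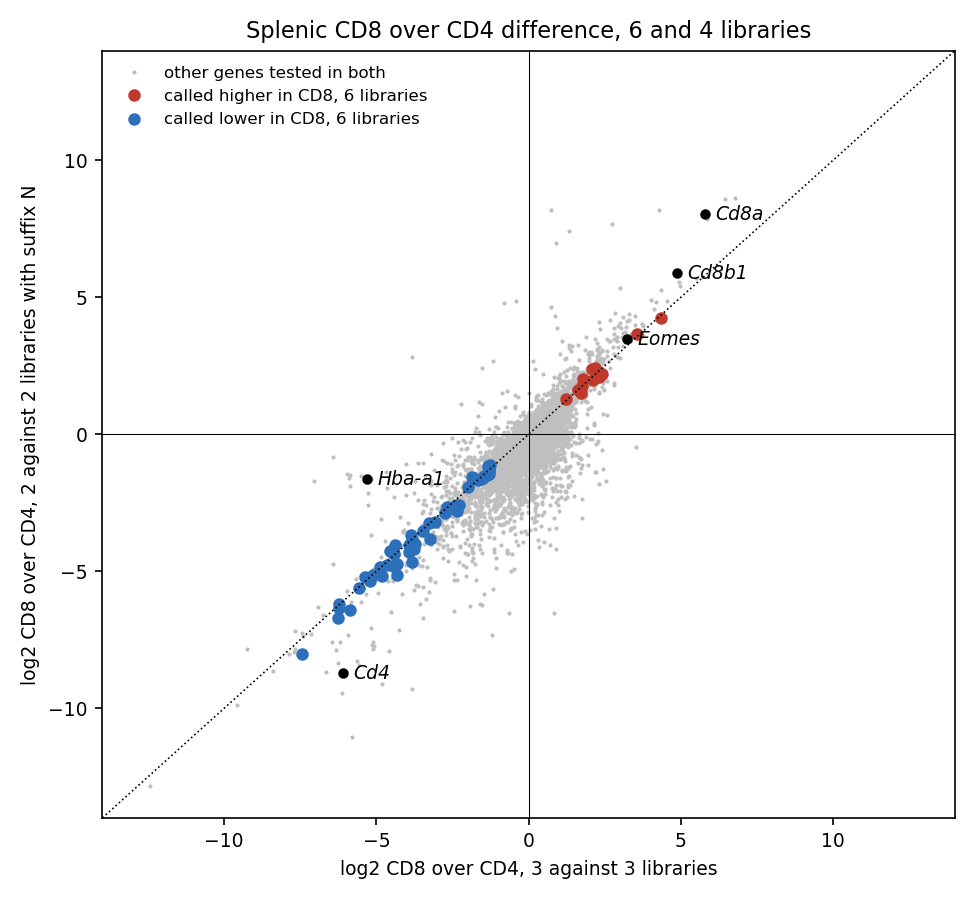
Log2 CD8 over CD4 difference of each gene over 6 libraries (x axis) and over the 4 libraries with suffix N (y axis); coloured points are the 61 genes called over 6 libraries, and black points are labelled genes that were not. Cd8a lay at 5.80 over 6 libraries and at 8.05 over 4, and Hba-a1, a haemoglobin gene, at -5.31 over 6 and at -1.63 over 4.

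Genes of regulatory T cells, which among these cells belong to the CD4 side, were among those that fell in CD8 cells. Of 20 tested genes of the regulatory T-cell list, 7 were lower in CD8 cells over 6 libraries and none was higher, with a median log2 difference of -2.97 over the list, beside 0.00997 over all genes. In 15 of the 20 every CD8 library lay below every CD4 library, beside 13.9% of all genes tested. Over 4 libraries 19 of 20 were lower, with a median of -3.84 beside 0.00355 over all genes.

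Foxp3, the factor that fixes the regulatory T-cell fate, was at 4.48, 1.74 and 3.23 CPM in CD8 cells, against 247, 280 and 199 CPM in CD4 cells. No CD8 library came near a CD4 library, and the gene fell by 6.25 on the log2 scale (SE 0.42, adjusted p = 0.0062 by edgeR). Izumo1r, the folate-receptor family member known as FR4 on regulatory and activated CD4 cells, was at 14.7, 35.0 and 35.1 CPM in CD8 cells, against 466, 430 and 345 CPM in CD4 cells. It fell by 3.87 (SE 0.39, adjusted p = 0.0322), and CD8 replicate 1 was the lowest of the 6 libraries. On the authors' per-length scale Izumo1r was at 15.4, 33.1 and 31.9 FPKM in CD8 cells, against 471, 430 and 307 FPKM in CD4 cells. Foxp3 was lower on that scale in both groups, at 1.41, 0.46 and 0.84 FPKM in CD8 cells, against 70.8, 79.1 and 50.4 FPKM in CD4 cells.

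The promoters of these genes are shown because they stand for the genes lower in CD8 cells. They are the 250 bases before the start site, from RefSeq on GRCm38.p6, 5′ to 3′ on the gene's strand, with motifs in capitals. The motifs searched, on both strands, were TGTGGT for RUNX factors, AGATAA for GATA factors and CAGNTG for basic helix-loop-helix factors. None of them contains another. CAGNTG is 1 form of the E-box and is called E-box here, and other forms were not searched. Foxp3 lies on the plus strand at chrX:7579426-7579675, the first of 2 annotated starts, and holds 1 E-box. Izumo1r lies on the minus strand at chr9:14903768-14904017 and holds 1 RUNX motif, read as ACCACA, and 1 E-box, CACCTG.
Foxp3: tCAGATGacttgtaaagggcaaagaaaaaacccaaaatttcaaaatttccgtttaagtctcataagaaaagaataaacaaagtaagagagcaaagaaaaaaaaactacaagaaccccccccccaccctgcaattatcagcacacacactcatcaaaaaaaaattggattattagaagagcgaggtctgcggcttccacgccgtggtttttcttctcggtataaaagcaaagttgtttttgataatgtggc
Izumo1r: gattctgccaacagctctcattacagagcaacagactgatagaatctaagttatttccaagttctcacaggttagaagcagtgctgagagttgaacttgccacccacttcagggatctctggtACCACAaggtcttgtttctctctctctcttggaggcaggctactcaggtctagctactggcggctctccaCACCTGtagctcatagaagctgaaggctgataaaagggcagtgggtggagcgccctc

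Other surface proteins of regulatory T cells went the same way. Tnfrsf4, the costimulatory receptor OX40, was at 4.59, 2.96 and 3.14 CPM in CD8 cells, against 72.0, 89.8 and 54.8 CPM in CD4 cells, and fell by 4.33 (adjusted p = 0.0062, edgeR). Il2ra, the high-affinity chain of the interleukin 2 receptor, was at 6.27, 3.37 and 4.51 CPM in CD8 cells, against 65.3, 77.8 and 50.7 CPM in CD4 cells, and fell by 3.77 (adjusted p = 0.0166). In both genes every CD8 library lay far below every CD4 library.
Gpr83, a G-protein-coupled receptor, was at 2.09, 2.09 and 1.43 CPM in CD8 cells, against 32.8, 24.5 and 29.2 CPM in CD4 cells (log2 difference -3.94, adjusted p = 0.0062). Ctla4, the inhibitory receptor for CD80 and CD86, was at 3.10, 2.61 and 2.85 CPM in CD8 cells, against 53.4, 54.2 and 22.2 CPM in CD4 cells (-3.92, adjusted p = 0.0322). Ikzf4, the zinc-finger factor Eos, was at 2.20, 1.57 and 2.71 CPM in CD8 cells, against 35.6, 34.1 and 16.6 CPM in CD4 cells (-3.73, adjusted p = 0.0346). For Ctla4 and Ikzf4, CD4 replicate 3 was the lowest CD4 library and still above all CD8 libraries.
Ikzf2, the factor Helios, was at 18.3, 13.5 and 14.2 CPM in CD8 cells, against 100, 109 and 28.3 CPM in CD4 cells, and did not pass over 6 libraries (adjusted p = 0.110) but fell by 2.92 over 4 (adjusted p = 3.73e-07). Nt5e, the ecto-nucleotidase CD73, was the list member that passed in neither comparison, at 16.4, 90.0 and 67.0 CPM in CD8 cells, against 117, 95.0 and 39.5 CPM in CD4 cells.

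**Figure D3:**
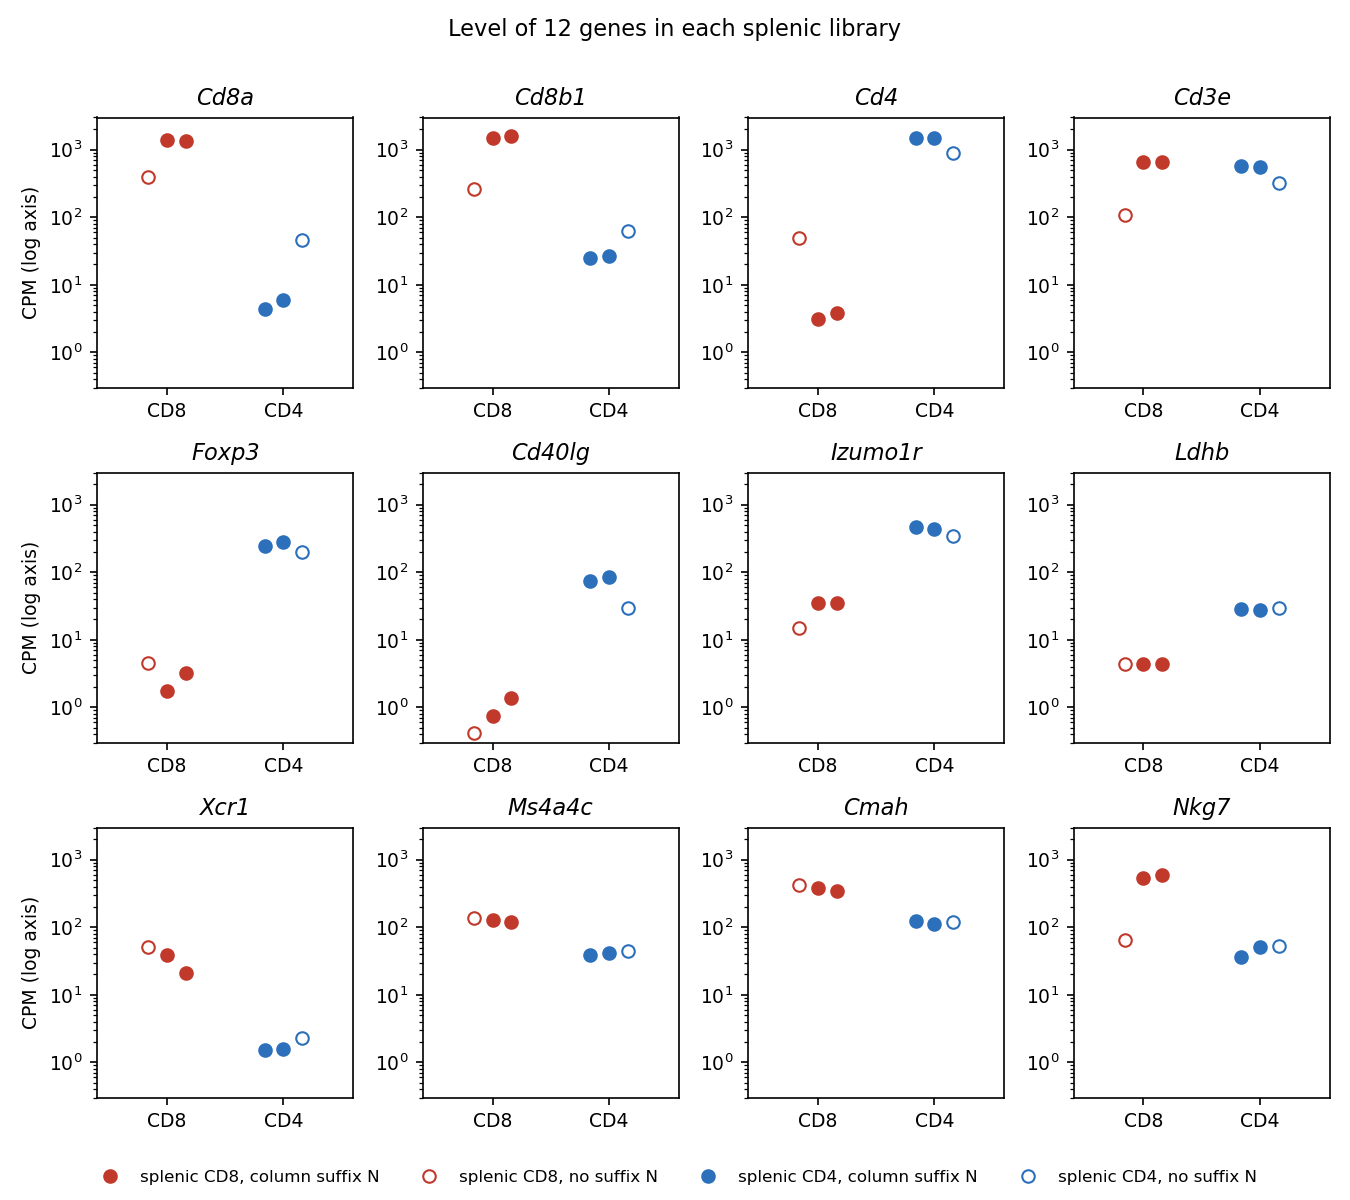
CPM (log axis) of selected genes in the 6 splenic libraries, CD8 left of CD4, 1 point per library, open for the 2 libraries without suffix N. Foxp3 lies between 1.74 and 4.48 CPM in CD8 cells and between 199 and 280 CPM in CD4 cells, and Xcr1 between 21.1 and 51.6 CPM in CD8 cells and between 1.53 and 2.30 CPM in CD4 cells.

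Genes of follicular helper cells formed a second group that was lower in CD8 cells. Of 16 tested, 3 were lower over 6 libraries and none was higher (median log2 difference -3.03), and 12 were lower over 4 libraries (median -4.01). Of all genes tested, 0.386% were lower over 6 libraries and 19.8% over 4. Bcl6 overlapped between the groups over 6 libraries (-0.26, adjusted p = 0.784 by edgeR) and fell by 0.93 over 4 (adjusted p = 0.0253). Sh2d1a and Btla passed in neither comparison. Cd40lg, the ligand through which helper cells license B cells, was at 0.410, 0.754 and 1.38 CPM in CD8 cells, against 75.2, 85.4 and 29.3 CPM in CD4 cells. It fell by 6.23 on the log2 scale (SE 0.65, adjusted p = 0.0346 by edgeR), and CD4 replicate 3 was the lowest CD4 library. Pdcd1, the inhibitory receptor PD-1, was at 1.16, 2.15 and 4.18 CPM in CD8 cells, against 102, 85.1 and 34.2 CPM in CD4 cells (-4.89, adjusted p = 0.04998). Angptl2, a secreted angiopoietin-like glycoprotein, was at 1.27, 1.68 and 2.38 CPM in CD8 cells, against 88.0, 78.8 and 30.3 CPM in CD4 cells (-5.21, adjusted p = 0.0322).

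The helper cytokine Il21 was at 0.0373, 0.174 and 0 CPM in CD8 cells, against 24.8, 19.5 and 4.78 CPM in CD4 cells, with an adjusted p of 0.0508 over 6 libraries. Sostdc1, a secreted antagonist of bone morphogenetic proteins, had no read in any CD8 library and 60.5, 28.1 and 7.83 CPM in CD4 cells. It passed in neither comparison (adjusted p = 0.0717 over 6 libraries and 0.06725 over 4, edgeR). Maf, a transcription factor of follicular helper cells, was at 63.0, 3.89 and 4.51 CPM in CD8 cells, against 166, 166 and 60.5 CPM in CD4 cells. Its groups overlapped through CD8 replicate 1, and it fell by 5.30 over the 4 libraries with suffix N (adjusted p = 2.54e-08). Cxcr5, the receptor that takes cells into the follicle and is also a B-cell gene, passed in neither comparison, at 280, 151 and 103 CPM in CD8 cells, against 213, 161 and 215 CPM in CD4 cells.

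Among the genes of helper subsets none of 14 passed over 6 libraries, while 3 were higher and 11 lower in CD8 cells over 4 libraries, of 16 tested. Ccr4, a chemokine receptor of regulatory and type 2 helper cells, was at 0.858, 0.348 and 1.14 CPM in CD8 cells, against 39.0, 49.3 and 9.65 CPM in CD4 cells (over 4 libraries -5.82, adjusted p = 4.3e-05). Il1rl1, the receptor of interleukin 33, was at 1.83, 0.116 and 0.142 CPM in CD8 cells, against 20.8, 17.6 and 3.47 CPM in CD4 cells, with a log2 difference of -7.14 over 4 libraries (adjusted p = 1.96e-06). The 3 genes higher in CD8 cells over 4 libraries were genes of type 1 responses. Ifng and Il12rb2, also of type 1 responses, passed in neither comparison. Tbx21, the factor T-bet, was at 17.7, 172 and 176 CPM in CD8 cells, against 43.2, 40.3 and 31.4 CPM in CD4 cells. It rose by 2.06 over 4 libraries (adjusted p = 7.23e-07) and had an adjusted p of 0.361 over 6, with CD8 replicate 1 below every CD4 library. Stat4 rose by 1.08 and Cxcr3 by 1.03 over 4 libraries (adjusted p = 1.37e-05 and 1.83e-05).

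Costimulatory genes of the TNF and B7 families were lower in CD8 cells in 3 of 19 over 6 libraries and in 13 of 19 over 4, where 2 were higher. The 3 were Ctla4, Cd40lg and Tnfrsf4, named above with other lists. Icos, a receptor of the CD28 family, was at 15.8, 33.6 and 33.6 CPM in CD8 cells, against 161, 170 and 50.9 CPM in CD4 cells, and fell over 4 libraries by 2.30 (adjusted p = 3.97e-07). Tnfsf11, the ligand RANKL, was at 1.08, 0.522 and 0.618 CPM in CD8 cells, against 22.1, 22.2 and 5.91 CPM in CD4 cells (over 6 libraries -4.47, adjusted p = 0.0516). Tnfrsf26 rose by 0.66 and Cd27, a receptor that sustains T-cell survival, by 0.21 over 4 libraries.

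Of 17 inhibitory receptors and genes of exhausted cells, 2 were lower over 6 libraries and 10 over 4, with 1 higher. Tigit was at 2.17, 8.24 and 8.03 CPM in CD8 cells, against 105, 91.8 and 30.6 CPM in CD4 cells, and fell by 3.60 over 4 libraries (adjusted p = 3.25e-07; 0.0829 over 6). Lag3, a receptor for MHC class II, was at 23.6, 13.5 and 20.1 CPM in CD8 cells, against 114, 108 and 50.7 CPM in CD4 cells (-2.72 over 4 libraries, adjusted p = 9.37e-05). The gene that rose was Cd160, at 14.9, 45.0 and 67.2 CPM in CD8 cells, against 6.21, 9.18 and 11.4 CPM in CD4 cells (2.87, adjusted p = 0.00141). Tox, a factor of exhausted and of developing CD4 cells, was at 16.6, 65.6 and 79.9 CPM in CD8 cells, against 147, 133 and 83.3 CPM in CD4 cells, and fell by 0.94.

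Several other genes were also called lower over 6 libraries. Ncmap, a membrane protein of myelinating cells, was nearly absent from CD8 cells at 0.0746, 0.058 and 0.0475 CPM, against 13.0, 16.9 and 4.69 CPM in CD4 cells. Ldhb, the heart-type subunit of lactate dehydrogenase, was at 4.44, 4.35 and 4.42 CPM in CD8 cells, against 28.5, 27.3 and 29.7 CPM in CD4 cells. Its libraries lay close together in each group, CD8 replicate 1 and CD4 replicate 3 included, and the gene fell by 2.69 (SE 0.17, adjusted p = 0.0062 by edgeR).
Spock2, a matrix proteoglycan, was at 2.35, 2.67 and 2.33 CPM in CD8 cells, against 95.1, 85.0 and 28.9 CPM in CD4 cells (-4.83, adjusted p = 0.0346). Synpo, an actin-binding protein, was at 0.784, 1.22 and 0.950 CPM in CD8 cells, against 22.4, 18.7 and 28.0 CPM in CD4 cells (-4.55, adjusted p = 0.0062). Itm2c, a membrane protein of the BRICHOS family, was the most abundant of the lower genes after Izumo1r, at 107, 136 and 144 CPM in CD8 cells, against 295, 308 and 320 CPM in CD4 cells (-1.25, adjusted p = 0.04998).
Itgb3, the integrin beta 3 chain, was at 35.9, 57.1 and 58.8 CPM in CD8 cells, against 176, 165 and 213 CPM in CD4 cells (log2 difference -1.86, adjusted p = 0.0470). Tgfbr3, the coreceptor betaglycan, was at 10.7, 15.1 and 17.1 CPM in CD8 cells, against 59.9, 61.7 and 48.4 CPM in CD4 cells (-1.99, adjusted p = 0.0401). Egr2, a zinc-finger factor induced through the T-cell receptor, was at 9.82, 10.7 and 11.3 CPM in CD8 cells, against 36.9, 28.9 and 24.7 CPM in CD4 cells (-1.51, adjusted p = 0.04998). In these 3 genes the groups kept a gap between every CD8 and every CD4 library.
Also lower, by log2 differences between -6.23 and -1.38, were Tshz2, Bcam, B4galnt4, Nrn1, Ces2c, Nav2, Ephx1 and Ramp1, a subunit of the receptor for calcitonin gene-related peptide. Another 22 lower genes lay outside the naming rule. Leaving out Dnah7a, with 3 reads in all CD8 libraries together, they ranged from -5.57 in Clip3 to -1.30 in Ksr1. Of those, Ecm1, an extracellular matrix protein, chosen after its values were seen, was at 7.24, 5.63 and 5.75 CPM in CD8 cells, against 53.6, 50.3 and 54.0 CPM in CD4 cells (-3.08, adjusted p = 0.0062).

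The 13 genes higher in CD8 cells over 6 libraries held neither a coreceptor nor a gene of killing. Xcr1, the receptor of the chemokine XCL1 and best known from cross-presenting dendritic cells, had the largest difference among them. It was at 51.6, 38.2 and 21.1 CPM in CD8 cells, against 1.53, 1.58 and 2.30 CPM in CD4 cells, and rose by 4.36 (SE 0.41, adjusted p = 0.0264 by edgeR). CD8 replicate 1 was the highest library. Ms4a4c, a membrane protein of the MS4A family, was at 138, 129 and 121 CPM in CD8 cells, against 38.5, 42 and 44.2 CPM in CD4 cells, and rose by 1.64 (SE 0.14, adjusted p = 0.0193). Its 3 libraries lay close together in each group. Their promoters, shown because they stand for the genes higher in CD8 cells, are given in the same form as above. Xcr1 lies on the minus strand at chr9:123862030-123862279 and holds none of the motifs searched. Its CACGTG is a form of the E-box that was not searched. Ms4a4c lies on the plus strand at chr19:11407411-11407660 and holds 1 RUNX motif, read as ACCACA.
Xcr1: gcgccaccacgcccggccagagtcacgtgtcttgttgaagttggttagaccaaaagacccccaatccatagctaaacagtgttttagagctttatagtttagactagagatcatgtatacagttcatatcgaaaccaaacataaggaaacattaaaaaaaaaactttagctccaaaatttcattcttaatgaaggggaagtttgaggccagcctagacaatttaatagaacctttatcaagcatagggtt
Ms4a4c: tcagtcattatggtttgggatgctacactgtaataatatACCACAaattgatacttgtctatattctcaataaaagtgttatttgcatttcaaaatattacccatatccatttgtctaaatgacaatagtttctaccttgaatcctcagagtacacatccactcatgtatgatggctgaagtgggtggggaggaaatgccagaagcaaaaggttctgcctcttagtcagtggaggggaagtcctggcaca

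Over whole groups the shares of promoter windows that hold each motif are as follows. Among 15 windows of 12 of the 13 genes higher in CD8 cells, 6.67% held the RUNX motif, 26.7% the GATA motif and 33.3% the E-box. Among 52 windows of 37 of the 48 genes lower in CD8 cells, 9.62% held the RUNX motif, 3.85% the GATA motif and 53.8% the E-box. Among 12698 windows of all tested genes with an entry, the shares were 11.3%, 6.23% and 38.5%. The GATA share of the higher genes stands for 4 windows and their RUNX share for 1. A match is a description of letters, and no factor's binding was measured.

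Dendritic-cell markers moved with Xcr1 in part. Of 13 tested, Xcr1 itself was the only one called over 6 libraries. Clec9a, the dead-cell receptor of the same dendritic cells, was at 72.0, 23.7 and 15.6 CPM in CD8 cells, against 4.46, 6.36 and 5.16 CPM in CD4 cells (2.80, adjusted p = 0.110; over 4 libraries 1.86, adjusted p = 0.00104). Zbtb46, a factor shared by classical dendritic cells, was at 37.1, 9.57 and 11.5 CPM in CD8 cells, against 20.8, 23.1 and 17.2 CPM in CD4 cells, and Siglech, of plasmacytoid dendritic cells, at 73.8, 11.7 and 15.3 CPM, against 46.4, 69.8 and 17.7 CPM. Over 4 libraries 3 of the 13 were higher in CD8 cells and 8 lower, and the summed level of the list was 1376, 580.4 and 521.3 CPM in CD8 cells, against 734.8, 747.3 and 652.7 CPM in CD4 cells. The part of these cells in the difference of Xcr1 was not tested. Snx22, a sorting nexin, was at 25.5, 19.6 and 14.5 CPM in CD8 cells, against 4.42, 3.59 and 3.84 CPM in CD4 cells (2.33, adjusted p = 0.0401).

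The other genes higher in CD8 cells included enzymes. Cmah, which hydroxylates sialic acid, was at 420, 385 and 341 CPM in CD8 cells, against 124, 111 and 121 CPM in CD4 cells, and rose by 1.68 (SE 0.16, adjusted p = 0.0264 by edgeR). It was the most abundant gene of the 13. Chsy1, a chondroitin sulfate synthase, was at 92.3, 163 and 180 CPM in CD8 cells, against 30.6, 32.9 and 33.3 CPM in CD4 cells (2.17, adjusted p = 0.0452). Pde7a, which degrades cyclic AMP, was at 215, 227 and 200 CPM in CD8 cells, against 89.8, 86.2 and 97.3 CPM in CD4 cells (1.23, adjusted p = 0.0401). Pde7a had the smallest difference of the 13.
Cracr2a, a calcium-sensing regulator of store-operated channels, was at 57.7, 99.4 and 97.0 CPM in CD8 cells, against 24.1, 24.8 and 24.7 CPM in CD4 cells (1.79, adjusted p = 0.0470). Ptpn4, a tyrosine phosphatase, rose by 1.75, and Tent5a, a poly(A) polymerase, by 1.74. Fam241a rose by 2.09 and Ifi214, of the interferon-inducible PYHIN family, by 2.12. H2-Q10, a secreted class I molecule of the near-identical Q family among whose members reads may be split, was at 16.2, 14.3 and 11.6 CPM in CD8 cells, against 3.02, 2.54 and 2.34 CPM in CD4 cells (2.41, adjusted p = 0.03996). Plce1, a phospholipase C below the level set for naming, was the last of the 13, at 5.56, 7.77 and 9.07 CPM in CD8 cells, against 0.656, 0.670 and 0.562 CPM in CD4 cells.

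The genes that define the CD8 lineage separated the libraries but did not pass over 6 libraries. Of 12 in the list none was called, and the median log2 difference was 2.53. In 8 of the 12 every CD8 library lay above every CD4 library, beside 14.4% of all genes tested. Over 4 libraries 9 were higher and 1 lower (median 3.17). Cd8b1 was at 259, 1504 and 1604 CPM in CD8 cells, against 25.2, 26.9 and 63.5 CPM in CD4 cells. It had an adjusted p of 0.0690 over 6 libraries and rose by 5.90 over 4 (SE 0.09, adjusted p = 8.25e-09). Cd8a had an adjusted p of 0.0979 over 6 libraries and rose by 8.05 over 4 (SE 0.14, adjusted p = 2.54e-08). Runx3, in which CD8 replicate 1 lay below every CD4 library, was at 161, 363 and 405 CPM in CD8 cells, against 242, 270 and 202 CPM in CD4 cells, and rose by 0.58 over 4 libraries (adjusted p = 0.000849). Itgae, the alpha E chain of the integrin CD103, passed in neither comparison, at 46.8, 47.5 and 55.4 CPM in CD8 cells, against 31.9, 50.8 and 12.4 CPM in CD4 cells.

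On the CD4 side, 3 of 18 lineage genes were lower in CD8 cells over 6 libraries and none was higher, and over 4 libraries 11 were lower and 3 higher. The 3 were Cd40lg, Izumo1r and Tnfrsf4. Cd4 itself had an adjusted p of 0.107 over 6 libraries and fell by 8.72 over 4 (SE 0.11, adjusted p = 4.09e-09). Zbtb7b was at 77.4, 25.9 and 30.9 CPM in CD8 cells, against 297, 292 and 304 CPM in CD4 cells, with an adjusted p of 0.0660 over 6 libraries and a log2 difference of -3.38 over 4 (adjusted p = 2.57e-07). St8sia6, a sialyltransferase, was at 54.8, 5.28 and 3.61 CPM in CD8 cells, against 92.6, 86.5 and 47.4 CPM in CD4 cells, and its groups overlapped because CD8 replicate 1 lay above CD4 replicate 3; over 4 libraries it fell by 4.35 (adjusted p = 7.25e-07). The genes higher in CD8 cells over 4 libraries were Satb1, Mbnl1 and Myb, a factor of progenitor and memory cells. Myb was at 52.8, 45.1 and 32.4 CPM in CD8 cells, against 20.6, 19.6 and 18.1 CPM in CD4 cells.

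None of 26 cytotoxic effector genes passed over 6 libraries (median log2 difference 0.743), and over 4 libraries 13 were higher and 5 lower (median 0.762). Gzmm, granzyme M, was at 3.92, 76.1 and 61.4 CPM in CD8 cells, against 1.23, 1.72 and 1.69 CPM in CD4 cells, and rose by 5.54 over 4 libraries (adjusted p = 5.25e-07 by edgeR). Nkg7, a granule membrane protein, was at 64.5, 533 and 595 CPM in CD8 cells, against 35.9, 51.6 and 52.7 CPM in CD4 cells (3.69, adjusted p = 0.000222). Eomes, the T-box factor of memory-like CD8 cells, was at 29.8, 245 and 242 CPM in CD8 cells, against 19.2, 24.7 and 11.5 CPM in CD4 cells (3.47, adjusted p = 7.23e-07). In each of these genes CD8 replicate 1 was the lowest CD8 library and still above the CD4 libraries.
Prf1, perforin, was at 23.4, 171 and 166 CPM in CD8 cells, against 39.6, 49.6 and 36.3 CPM in CD4 cells. Here CD8 replicate 1 fell below all CD4 libraries, and the gene rose by 1.92 over 4 libraries (adjusted p = 6.48e-06). Ccl5, a chemokine of memory and killer cells, reached 2355 and 3875 FPKM in CD8 replicates 2 and 3 and 210 FPKM in CD8 replicate 1, against 210, 427 and 252 FPKM in CD4 cells. With that spread it passed in neither comparison (adjusted p = 0.254 and 0.0648). The granzymes of armed effector cells stayed low: Gzmb was at 6.34, 7.37 and 16.0 CPM in CD8 cells, against 16.8, 10.2 and 7.03 CPM in CD4 cells, and Gzma at 12.1, 7.14 and 8.98 CPM, against 9.93, 7.84 and 47.6 CPM. The 5 genes lower over 4 libraries were Tnf, Srgn, Zeb2, Prdm1 and Id2, of which Prdm1, the repressor Blimp-1, fell by 1.52. Zeb2 was at 104, 8.18 and 8.79 CPM in CD8 cells, against 22.4, 16.7 and 22.2 CPM in CD4 cells, so that its groups overlapped over 6 libraries, with CD8 replicate 1 the highest.

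Receptors of the NK type, most of them lectin-like receptors, were higher in CD8 cells over 4 libraries in 18 of 28 and lower in 6 (median log2 difference 2.12). None passed over 6 libraries, although in 13 of 28 every CD8 library lay above every CD4 library, beside 14.4% of all genes tested. Klrk1, the activating receptor NKG2D, was at 37.0, 91.4 and 132 CPM in CD8 cells, against 13.8, 19.9 and 13.4 CPM in CD4 cells (over 4 libraries 2.73, adjusted p = 0.00362). Klrd1, the partner CD94, was at 35.4, 67.2 and 65.9 CPM in CD8 cells, against 14.1, 15.8 and 16.4 CPM in CD4 cells, with an adjusted p of 0.0558 over 6 libraries and a rise of 2.15 over 4. Klra7, of the Ly49 family, was at 14.5, 55.9 and 41.0 CPM in CD8 cells, against 1.97, 1.20 and 3.75 CPM in CD4 cells (4.91 over 4 libraries, adjusted p = 1.3e-05). The Klra genes, and likewise Klrc1, Klrc2 and Klrc3, are near-identical, so reads may be split among them and single members are uncertain.
Klrg1, a receptor of terminal effector cells, went the other way, at 1.46, 1.04 and 2.09 CPM in CD8 cells, against 23.5, 27.9 and 6.89 CPM in CD4 cells (over 4 libraries -4.00, adjusted p = 1.86e-05). Of 11 tested NK-cell markers, some of them shared with the lists above, none passed over 6 libraries, and over 4 libraries 4 were higher and 2 lower (median 1.25). Their summed level was 521.6, 1014 and 1129 CPM in CD8 cells, against 292, 278 and 598.4 CPM in CD4 cells, and their part in the other values was not tested. Klrb1c, which encodes NK1.1, was at 7.61, 20.9 and 35.4 CPM in CD8 cells, against 14.7, 8.99 and 30.6 CPM in CD4 cells. Ncr1, the NK-cell receptor NKp46, was at 3.17, 1.33 and 0.808 CPM in CD8 cells, against 2.98, 1.77 and 8.86 CPM in CD4 cells.

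Markers of memory and activation were split, with 11 of 26 higher and 8 lower in CD8 cells over 4 libraries, and Il2ra alone called over 6. Il2rb, the receptor chain shared by interleukins 2 and 15, was at 207, 1975 and 2175 CPM in CD8 cells, against 567, 611 and 471 CPM in CD4 cells. CD8 replicate 1 lay below every CD4 library, and the gene rose by 1.81 over 4 libraries (adjusted p = 2.51e-06 by edgeR; 0.431 over 6). The neighbouring genes Ly6c1 and Ly6c2, which are near-identical in sequence, moved in opposite directions. Ly6c2 was at 230, 1146 and 1410 CPM in CD8 cells, against 68.9, 92.2 and 87.5 CPM in CD4 cells, and rose by 3.99 over 4 libraries (adjusted p = 7.03e-05). Ly6c1 was at 4.48, 18.0 and 21.9 CPM in CD8 cells, against 132, 162 and 213 CPM in CD4 cells, and fell by 2.88 (adjusted p = 6.16e-06). In both genes the groups did not overlap in any library.
Ahnak, a large scaffold protein, was at 729, 966 and 1072 CPM in CD8 cells, against 269, 376 and 206 CPM in CD4 cells (over 6 libraries adjusted p = 0.0690; over 4 a rise of 1.66, adjusted p = 0.00117). Cd44, the usual marker of memory cells, passed in neither comparison, at 354, 247 and 251 CPM in CD8 cells, against 248, 254 and 186 CPM in CD4 cells.

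Of 21 genes of naive and recirculating cells, 10 were higher and 2 lower in CD8 cells over 4 libraries. Il7r, the receptor of the survival cytokine interleukin 7, was at 185, 940 and 879 CPM in CD8 cells, against 463, 421 and 331 CPM in CD4 cells, and rose by 1.04 (adjusted p = 2.66e-05). Ccr7, Tcf7 and Lef1 passed in neither comparison. The lower genes were Ramp1, given above, and Igfbp4, an insulin-like growth factor binding protein, at 20.9, 121 and 116 CPM in CD8 cells, against 588, 527 and 754 CPM in CD4 cells (-2.24, adjusted p = 5.63e-07).

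Cytokine receptors and their SOCS regulators were evenly divided over 4 libraries, with 9 of 29 higher and 9 lower (median log2 difference -0.0176). Il2ra and Tgfbr3, both lower, were the only members called over 6 libraries. Il18rap, a chain of the interleukin 18 receptor, was at 41.5, 155 and 180 CPM in CD8 cells, against 24.6, 31.0 and 22.4 CPM in CD4 cells (over 4 libraries 2.59, adjusted p = 8.41e-06). Ifngr1 was at 266, 435 and 409 CPM in CD8 cells, against 205, 204 and 186 CPM in CD4 cells (1.04, adjusted p = 1.04e-05), while Ifngr2, the other chain of the interferon gamma receptor, was at 100, 32.5 and 22.1 CPM in CD8 cells, against 65.1, 61.1 and 57.9 CPM in CD4 cells (-1.22, adjusted p = 0.00221). Cish, an inhibitor of interleukin 2 signalling, was at 5.56, 11.9 and 16.3 CPM in CD8 cells, against 43.0, 54.6 and 39.9 CPM in CD4 cells (-1.78, adjusted p = 0.000282).

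Among 26 chemokine genes Xcr1 alone passed over 6 libraries, and 8 were higher and 5 lower over 4. Of all genes tested over 4 libraries, 16.5% were higher and 19.8% lower. Xcl1, the ligand of XCR1, was at 3.32, 18.9 and 19.1 CPM in CD8 cells, against 1.84, 2.34 and 1.17 CPM in CD4 cells (3.18, adjusted p = 1.17e-05). Ccr9, the receptor for gut homing, was at 67.8, 60.8 and 47.1 CPM in CD8 cells, against 24.3, 29.1 and 12.9 CPM in CD4 cells (1.01, adjusted p = 0.00118). Of 24 integrins and adhesion molecules, Itgb3 alone passed over 6 libraries, and 7 were higher and 7 lower over 4. Jaml was at 62.8, 76.1 and 83.3 CPM in CD8 cells, against 22.98, 25.6 and 11.2 CPM in CD4 cells (1.71 over 4 libraries, adjusted p = 6.16e-06; 0.0703 over 6).

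Components of the T-cell receptor and its signalling chain were split. None of 34 passed over 6 libraries, and over 4 libraries 11 were higher and 10 lower with a median log2 difference of 0.0238. Txk, a kinase of the Tec family, was at 31.1, 148 and 156 CPM in CD8 cells, against 60.7, 56.1 and 62.0 CPM in CD4 cells (1.38 over 4 libraries, adjusted p = 6.32e-06). Cd5, an inhibitory coreceptor, was at 40.8, 263 and 247 CPM in CD8 cells, against 474, 508 and 310 CPM in CD4 cells (-0.95, adjusted p = 2.41e-05). Cd247, the zeta chain, fell by 0.56, and Cd3d rose by 0.37.
The BCL2 family split evenly as well, 7 of 18 higher and 7 lower over 4 libraries. Bcl2 was at 166, 309 and 310 CPM in CD8 cells, against 122, 116 and 58.3 CPM in CD4 cells (1.38, adjusted p = 2.86e-06). Of 22 MHC class I and processing genes 5 were higher and 3 lower over 4 libraries, beside 16.5% and 19.8% of all genes tested. H2-K1, H2-D1 and B2m passed in neither comparison.

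Genes of cell division were lower in CD8 cells over 4 libraries, 24 of 34 against 1 higher, with a median of -1.08, and none of 34 passed over 6 libraries (median -0.56). Ccna2 was at 23.3, 17.2 and 13.3 CPM in CD8 cells, against 42.6, 35.7 and 21.98 CPM in CD4 cells (-1.37 over 4 libraries, adjusted p = 0.000229). Mki67 was at 157, 71.8 and 49.8 CPM in CD8 cells, against 135, 120 and 28.3 CPM in CD4 cells (-1.07, adjusted p = 0.00883). CD8 replicate 1 was the highest and CD4 replicate 3 the lowest library for Mki67, the reverse of the other 4. The gene that rose was Ccne1 (0.57, adjusted p = 0.0102), and the replication licensing genes Mcm2, Mcm3, Mcm4, Mcm6 and Mcm7 did not pass.

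Cytosolic ribosomal protein genes were higher in CD8 cells over 4 libraries in 27 of 32, none lower, with a median log2 difference of 0.465. Over 6 libraries none passed, the median was -0.0303, and the groups overlapped in all 32. Rpl4 was at 1911, 3717 and 3856 CPM in CD8 cells, against 2425, 2543 and 2603 CPM in CD4 cells (0.61 over 4 libraries, adjusted p = 0.000625). CD8 replicate 1 was the lowest library in Rpl4, and likewise in Rplp0, at 2110, 6014 and 7034 CPM in CD8 cells, against 3923, 4759 and 6185 CPM in CD4 cells. Scaling by DESeq2's size factors gave the same count of 27.
Of 30 interferon-stimulated genes, 5 were higher and 11 lower over 4 libraries, and none passed over 6. Of all genes tested over 4 libraries, 16.5% were higher and 19.8% lower. Ifi27l2a was at 51.2, 21.3 and 21.8 CPM in CD8 cells, against 84.0, 104 and 139 CPM in CD4 cells (-2.12 over 4 libraries, adjusted p = 4.8e-06), and Oas3 rose by 0.80. Of 26 immediate-early and stress genes, Egr2 alone passed over 6 libraries, and 2 were higher and 6 lower over 4. Hspa1a, a heat-shock gene, was at 5.26, 17.4 and 192 CPM in CD8 cells, against 26.8, 245 and 0.984 CPM in CD4 cells, and so varied more within each group than between them. Of 19 glycolysis genes, Ldhb alone passed over 6 libraries, and 4 were higher and 7 lower over 4; Pkm, pyruvate kinase, was at 407, 612 and 668 CPM in CD8 cells, against 950, 1035 and 1012 CPM in CD4 cells (-0.64, adjusted p = 0.000428).

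**Figure D4:**
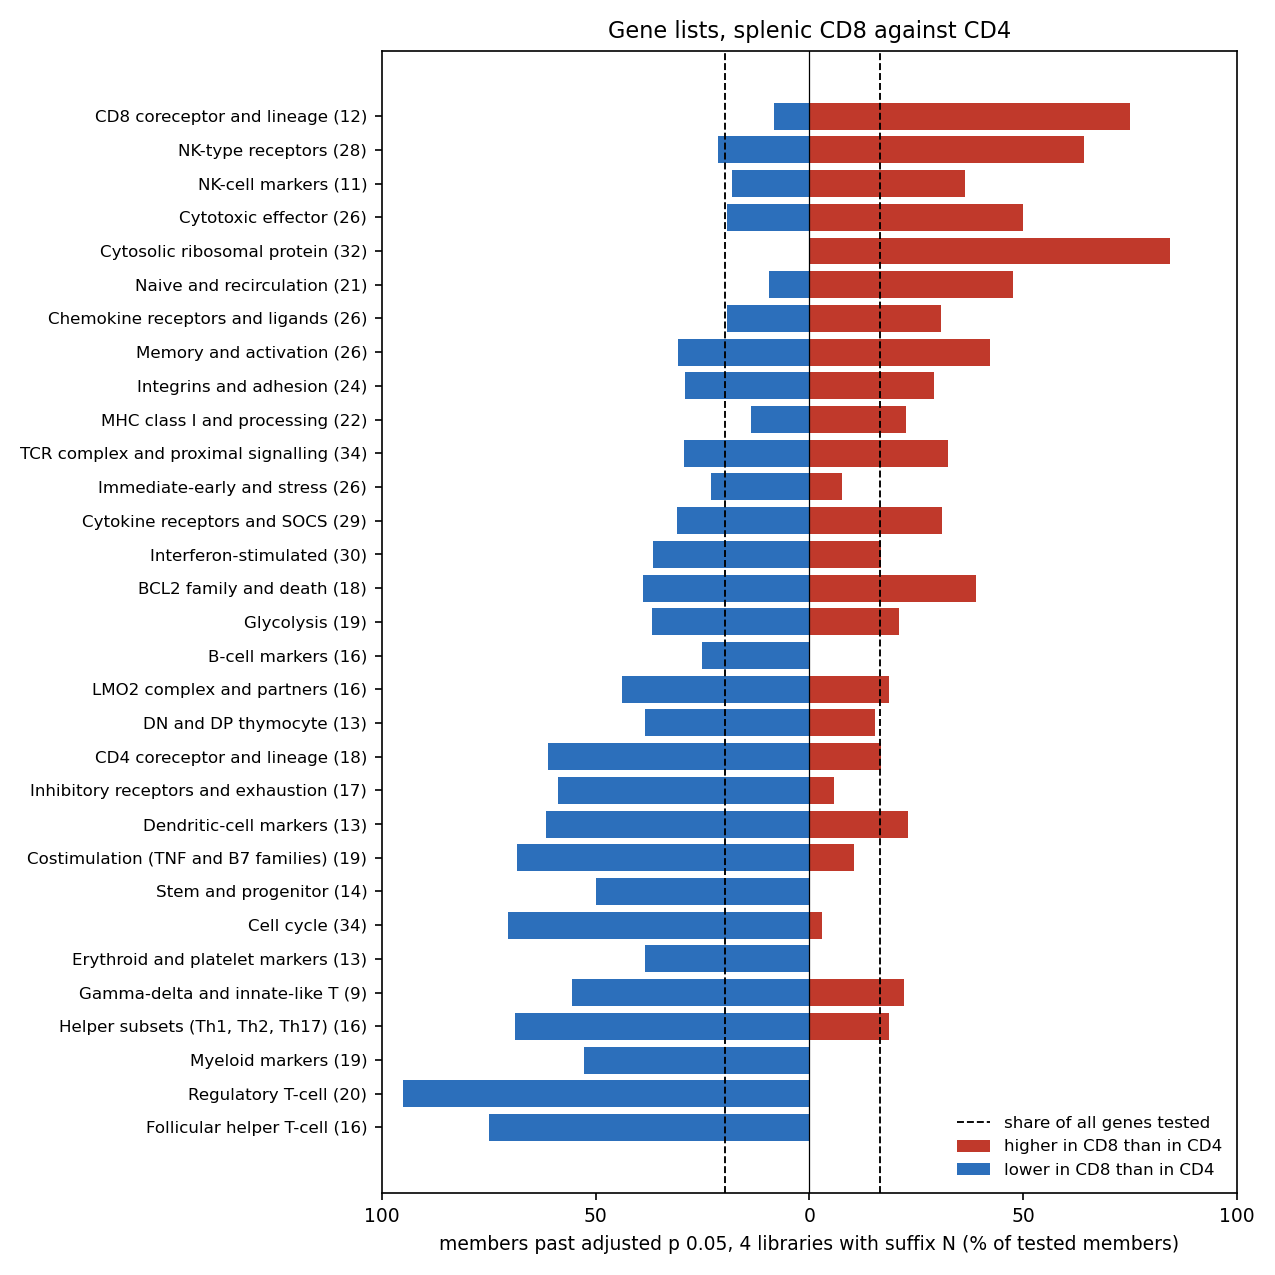
Share of each list's tested members (number in brackets) that were higher (right) or lower (left) in CD8 than in CD4 cells over the 4 libraries with suffix N; dashed lines mark the shares of all genes, 16.5% higher and 19.8% lower. Regulatory T-cell genes were lower in 19 of 20, and ribosomal protein genes higher in 27 of 32.

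Partners of LMO2 were compared because all 6 libraries carry it. None of 17 tested partners passed over 6 libraries (median log2 difference -0.251), and over 4 libraries 3 of 16 were higher and 7 lower. Of all genes tested over 4 libraries, 16.5% were higher and 19.8% lower. Ldb1, the bridging partner, was at 191, 314 and 312 CPM in CD8 cells, against 337, 342 and 323 CPM in CD4 cells and passed in neither comparison. Tcf12, an E protein, was at 113, 193 and 208 CPM in CD8 cells, against 116, 120 and 75.1 CPM in CD4 cells (0.76 over 4 libraries, adjusted p = 9.14e-05). Gata3, which CD4 cells need, was at 10.2, 70.8 and 77.1 CPM in CD8 cells, against 121, 117 and 40.3 CPM in CD4 cells (-0.69, adjusted p = 0.000228), and Runx1 fell by 1.08.
Lyl1, the helix-loop-helix partner in stem cells, was at 82.3, 14.6 and 9.26 CPM in CD8 cells, against 23.1, 15.3 and 52.4 CPM in CD4 cells and so followed CD8 replicate 1 and CD4 replicate 3. Of 14 stem and progenitor genes none was higher and 7 were lower over 4 libraries, among them Kit, the receptor of stem cell factor, at 76.4, 22.9 and 23.9 CPM in CD8 cells, against 76.2, 74.0 and 37.5 CPM in CD4 cells (-1.68, adjusted p = 4.24e-06). Spi1, which is also a myeloid and B-cell factor, fell by 1.29. Myeloid markers were lower in CD8 cells in 10 of 19 over the same 4 libraries, and their part in the stem-cell genes was not tested.

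The same contrast exists in the thymus of wild-type mice, where CD8 and CD4 single-positive cells (CD8SP and CD4SP) had 3 libraries each and no LMO2 transgene. There 5304 of 11859 genes passed, 2859 higher in CD8SP cells, 24.1% of the genes tested, and 2445 lower, 20.6%. Of the 48 genes lower in splenic CD8 cells, 43 were tested in the thymus, and 30 of them were lower there too, 69.8%. These are 1.27% of the 2353 genes lower in the thymus that could be compared. Another 5 were higher in CD8SP cells. Of the 13 genes higher in splenic CD8 cells, 12 were tested, 9 had the same sign and 1 passed, Fam241a (1.45), which is 8.33% of the splenic calls and 0.0365% of 2739 thymic ones. Over the 4 splenic libraries with suffix N, 1948 genes called higher were tested in the thymus. Of these, 512 were higher there too, 26.3%, and 370 were lower. Of 1956 genes called lower, 668 were lower there too, 34.2%, and 387 were higher. Beside these shares stand 24.1% higher and 20.6% lower among all genes tested in the thymus.
Cd40lg differed by -6.23 in the spleen and -5.76 in the thymus, Tnfrsf4 by -4.33 and -4.27, Foxp3 by -6.25 and -3.87, Itgb3 by -1.86 and -3.41, and Il2ra by -3.77 and -2.82. Angptl2 and Ramp1, lower in splenic CD8 cells, were higher in CD8SP than in CD4SP thymocytes, by 2.14 and 0.48. Xcr1 differed by 1.93 in the thymus with an adjusted p of 0.0707 by edgeR. Zbtb7b differed by -3.38 in the spleen over 4 libraries and by -8.44 in the thymus.
Lists are set side by side over 4 splenic libraries and 6 thymic ones, with no test of the difference. Cell-division genes were higher in CD8SP than in CD4SP thymocytes in all 34 (median 2.62), while 24 of 34 were lower in splenic CD8 cells. The DP-stage gene Rag1 was at 614.7, 451.6 and 2954 CPM in wild-type CD8SP cells, against 62.8, 48.4 and 294 CPM in wild-type CD4SP cells. CD8SP replicate 3 also held Cd4 at 834.6 CPM. Of 15 tested genes of the immature thymocyte list, 12 were higher in wild-type CD8SP cells and 1 lower (median 2.3). The part of immature cells in the cell-division genes was not tested. NK-type receptors were lower in CD8SP cells in 11 of 19 and higher in 3. Naive and recirculation genes were lower in CD8SP cells in 14 of 21 and higher in 2. Ribosomal protein genes were higher in both, 26 of 32 in the thymus with a median of 0.663.
Whether the differences themselves differ was tested against transgenic CD8SP and CD4SP thymocytes over 12 libraries. By edgeR's quasi-likelihood test 3 of 13093 genes passed, and at an unadjusted p under 0.05 there were 826. DESeq2 called 122.

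**Figure D5:**
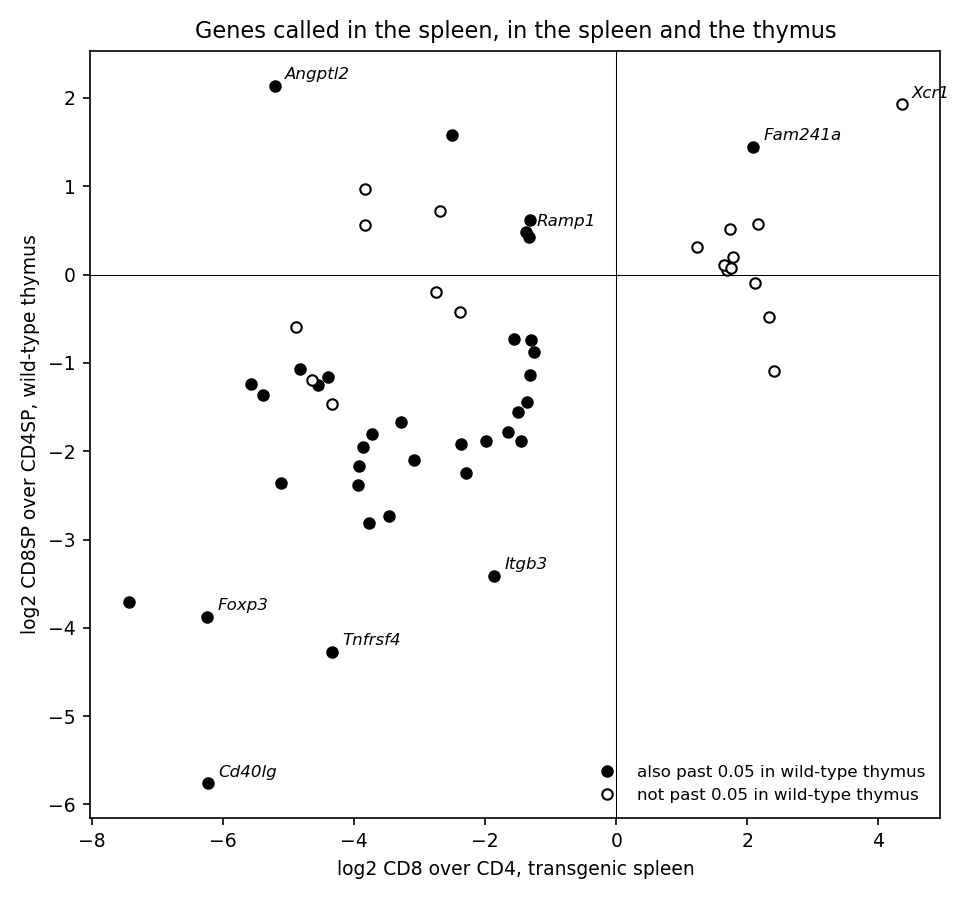
Log2 CD8 over CD4 difference in transgenic spleen (x axis, 6 libraries) and CD8SP over CD4SP difference in wild-type thymus (y axis, 6 libraries) for the genes called in the spleen and tested in both; filled points also passed in the thymus. Foxp3 lies at -6.25 and -3.87, and Angptl2 at -5.21 and 2.14.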

How the data were processed

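RNA of sorted splenic T cells was measured by sequencing of total RNA. The deposited table holds read counts per gene, and beside them FPKM values that the authors computed. Per the submitters' processing notes, HISAT, DESeq2, Bowtie2 and MACS2 were used with mm10 and mm9; the sources used here do not say which tool and build made the counts or whether strand was used in counting. Genes that share sequence or overlap may therefore share reads. The table also has 4 columns of samples not analysed here, and 25 gene symbols in it had turned into dates.

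Counts were scaled by TMM and tested with edgeR 4.0.16 in R 4.3.3 (quasi-likelihood fit with robust dispersion, two-sided test, Benjamini-Hochberg adjustment over all genes tested, threshold 0.05). Genes needed a count of at least 10 in enough libraries and 15 in total. Standard errors were computed as the log2 difference divided by the square root of the F statistic. CPM values rest on the TMM-scaled library sizes. FPKM values served to set levels of genes side by side and, for Ccl5, to give its level in each library. The adjusted p-values of Ccl5 rest on the counts. The splenic fit used the 6 splenic libraries without covariates; a second fit used the 4 libraries with suffix N and was added after the data were seen. The wild-type thymic fit and the interaction fit used 6 and 12 libraries.

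The genes named were Lmo2 and the coreceptors; the 15 largest increases and decreases among called genes with non-overlapping groups and a mean of at least 5 CPM; the most abundant called genes; the largest interactions; and list members with the smallest adjusted p. Members of lists given for contrast are extra. The members of the comparison and the gene lists were chosen with earlier results of these data known. Alternatives were DESeq2 1.42.0 size factors and test, no filter, a replicate block, a suffix term, all 40 RNA libraries in one fit, and leaving out each library.

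On simulated counts with the spread of the real libraries, the 6-library comparison recovered 3 of 100 genes changed 2-fold and 59 of 100 changed 4-fold, with 6 false calls among 12244 genes. The 4-library comparison recovered 96 of 100 and 99 of 100, with 67 false calls among 12177 genes. Beside 96 and 99 true calls, 67 false ones are a larger share of the calls than the threshold on adjusted p allows. Over 6 libraries, the 6 false calls beside 3 and 59 true ones were a smaller share, but also larger than that threshold allows. The calls over the real libraries may therefore hold more false ones than that threshold states, above all those over 4 libraries. Promoter windows came from RefSeq on GRCm38.p6, and 19383 gene IDs, 99.3%, matched RefSeq.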

Additional observations from a re-analysis of the deposited data

Results flagged for a closer look

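For 3 genes the difference of CD8 from CD4 cells was itself different between transgenic spleen and transgenic thymus, by edgeR's quasi-likelihood interaction test with Benjamini-Hochberg adjustment. The values are the splenic minus the thymic log2 difference, and all 3 are negative. For Angptl2, a secreted glycoprotein, it was -5.345 (SE 0.54, adjusted p = 0.0101). Angptl2 was at 71.4, 69.0 and 83.4 CPM in CD8SP thymocytes, against 72.8, 75.8 and 61.5 CPM in CD4SP thymocytes, and so overlapped there, while its splenic groups did not.

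For Gpr25, a G-protein-coupled receptor, the value was -6.171 (SE 0.74, adjusted p = 0.0278, edgeR). Gpr25 was at 0.672, 0.116 and 0.380 CPM in splenic CD8 cells, against 3.76, 3.11 and 2.06 CPM in splenic CD4 cells. In the thymus it was at 29.9, 36.5 and 18.1 CPM in CD8SP cells, against 2.55, 2.57 and 3.88 CPM in CD4SP cells, so the order of the groups was opposite in the spleen and in the thymus.

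For Pdlim4, a PDZ and LIM domain protein of the cytoskeleton, the value was -7.18 (SE 0.95, adjusted p = 0.0478, edgeR). Pdlim4 was at 3.02, 0.696 and 0.713 CPM in splenic CD8 cells, against 26.7, 31.0 and 54.0 CPM in splenic CD4 cells. In the thymus it was at 15.04, 4.62 and 5.16 CPM in CD8SP cells, against 1.57, 1.49 and 1.29 CPM in CD4SP cells, again in the opposite order.

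The transgenic thymic libraries departed from their labels. In the libraries labelled CD4SP, Cd4 was at 186, 2155 and 1306 CPM, Cd8a at 90.2, 3076 and 829 CPM and Rag1, a gene of earlier thymocytes, at 179, 6452 and 2284 CPM. CD8SP replicate 3 held Rag1 at 6002 CPM. The count of such genes by edgeR was 0 without CD4SP replicate 1 (1207 genes at an unadjusted p under 0.05), 17 without CD4SP replicate 2 and 0 without CD4SP replicate 3 (686 genes). It was 1, 1 and 2 without CD8SP replicates 1, 2 and 3 in turn, 14 without splenic CD8 replicate 1, and 8 without both splenic libraries that lack suffix N.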

How the results depend on the processing

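The 61 splenic calls became 56 with DESeq2's size factors and 64 without the filter, but 839 with the DESeq2 test, 1164 with all RNA libraries in one fit, 377 with a term for suffix N, 4494 with the suffix N libraries only and 4468 with those libraries under DESeq2's size factors. Leaving out single libraries gave 0 to 1289. The share of calls higher in CD8 cells was 21.3% over 6 libraries, 33.7% with the suffix term and 45.4% in the suffix N libraries. All 61 genes kept their sign in each of these fits, which their non-overlapping groups all but fixed in advance. The DESeq2 test, the suffix term and both suffix N fits kept all 61 calls.

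With replicate number as a block the splenic count was 0 by edgeR, with 1579 genes at an unadjusted p under 0.05. The labels do not say whether libraries of equal number share a mouse. Deviations of equal numbers correlated at -0.128, 0.264 and -0.296, and those of unlike numbers between -0.348 and 0.389. These values cannot decide whether the libraries are paired, because both ranges are wide and CD8 replicate 1 and CD4 replicate 3 stand apart. The thymic count was 5400 under the block.

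The 3 interaction genes became 122 with the DESeq2 test, 0 under the replicate block (622 at an unadjusted p under 0.05), 8 without both splenic libraries lacking suffix N, and 2416 against wild-type thymocytes. Single libraries left out gave 0 to 17. For wild-type thymus that range was 3515 to 5533, the lowest without CD4SP replicate 2.

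Of 160 named genes not called over 6 libraries, 118 were called in the suffix N libraries with the same sign and 4 with the opposite sign, while 13 changed sign without passing in either. The 4 were Tcf4 (-0.95 against 0.91), Rps9 (0.28 against -0.23), Jchain (-0.28 against 1.01) and Mzb1 (-0.48 against 0.40); DESeq2's size factors gave -0.95, 0.27, -0.28 and -0.49. The cause was not tested. The count of 118 stands beside 16.5% higher and 19.8% lower among all genes tested over 4 libraries. List members were named by their adjusted p over 6 libraries, which include those 4, so the count gives no independent support. With 2 libraries in a group, the spread is that of 1 pair of libraries, and 2-fold changes were mostly beyond the reach of the 6-library comparison.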

Other observations

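Beside Xcr1, 4 further genes with a like pattern over libraries were chosen after their values were seen. Other genes with or without that pattern were not counted. Rab7b, a small GTPase, was at 38.2, 27.3 and 17.3 CPM in CD8 cells, against 1.23, 1.004 and 5.06 CPM in CD4 cells. Gcsam, a signalling adaptor, was at 22.5, 15.8 and 10.5 CPM in CD8 cells, against 0.963, 0.239 and 3.75 CPM in CD4 cells. Tlr3, a sensor of double-stranded RNA, was at 52.3, 17.8 and 11.4 CPM in CD8 cells, against 2.76, 1.34 and 6.70 CPM in CD4 cells. Tlr11 was at 49.9, 21.5 and 15.4 CPM in CD8 cells, against 1.62, 3.73 and 5.39 CPM in CD4 cells. None of these 4 passed over 6 libraries, and Rab7b rose by 4.31, Gcsam by 4.40, Tlr3 by 2.81 and Tlr11 by 2.79 over the 4 libraries with suffix N.

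Stress transcripts varied within groups. Hspa1b was at 12.4, 42.8 and 360 CPM in CD8 cells, against 30.9, 329 and 3.14 CPM in CD4 cells. Fos, an immediate-early factor, was at 52.6, 108 and 312 CPM in CD8 cells, against 67.9, 155 and 6.51 CPM in CD4 cells. In both genes CD8 replicate 3 and CD4 replicate 2 were the highest libraries of their groups, and the groups overlapped.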
